A study of Mus musculus with 2 samples.

Results

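The genes described here are 7 genes of the kidney's intercalated cells: the transcription factor gene Foxi1, the 4 proton pump subunit genes Atp6v1b1, Atp6v1g3, Atp6v0a4 and Atp6v0d2, the membrane protein gene Tmem213 and the carbonic anhydrase gene Car2. They were taken as a fixed list of symbols, and each probe was assigned to its gene through the RefSeq transcript it was designed on. All 7 were on the array, among 20659 genes that could be named, with 8 probes in all. The 8 probes were well above background on both arrays, none of their spots was marked as an outlier, and so none of the genes was lost to a filter.

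RNA came from glomeruli of male mice aged 8 months that had all received 1 intraperitoneal injection of 0.5 ml pristane, an oil that induces lupus-like disease, and were followed for 4 months. One group was wild type (WT). The other, written Sirpa-/- in the labels, is described in the design text as lacking SIRPα specifically in podocytes. Each group had 1 one-colour array, hybridised with cRNA made from 0.25 µg RNA, so every difference is one between 2 arrays, with no replicate and no test. Mice without pristane were not analysed here. The sources used here do not give the strain, the promoter driving the deletion or the number of animals behind an array. Podocytes are named in the design text, but the tissue label is glomeruli, and the protocol describes glomeruli collected with magnetic beads from digested cortex. Pairs of signals below always give WT first.

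Intercalated cells line the connecting tubule and the collecting duct and are not part of the glomerulus. They secrete acid or base with a proton pump, the vacuolar H+-ATPase, whose V1 domain hydrolyses ATP in the cytosol while its V0 domain carries protons across the membrane. Most subunits are made in every cell, and intercalated cells add their own isoforms of a few of them. Foxi1 is the forkhead transcription factor that these cells need to form and to express the pump, and carbonic anhydrase II, the product of Car2, supplies the protons and bicarbonate inside the cell.

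Expression of the targeted gene was checked first. Sirpa had processed signals of 11624 (WT) and 17316 (Sirpa-/-), 1.55-fold higher in the second after scaling, which goes against the label. The position of its only probe relative to the deleted part is not known, and other glomerular cells keep the gene, so the probe may check nothing. The second array is therefore called the array labelled Sirpa-/- throughout. Of the gene probes, 85.3% (WT) and 86.7% (Sirpa-/-) were well above background, and 0 spots were saturated. Of the podocyte markers 10 of 10 were measured, but so were 12 of 12 proximal tubule markers, so that count does not tell tissues apart. The tissue label was borne out by signal size. Podocyte markers had median signals of 41132 and 44453, against 996 and 620 for proximal tubule markers and 117 and 112 over all gene spots. Magi2, on the podocyte list, had only 62.3 and 62.6. Wt1, a transcription factor of podocytes, had signals of 59382 and 68898.

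Promoter sequences are shown for the genes on which the comparison turns: Tmem213 and Foxi1, which had the largest differences between the arrays, Atp6v0a4, within which Tmem213 lies, and Atp6v1b1, the only one with a forkhead core. They are from RefSeq, build GRCm38.p6, and hold the 250 bases before the annotated start, read 5′ to 3′ on the gene's strand. Of the 7 genes 5 matched the promoter table, and Atp6v0d2 and Car2 did not. The windows are chr6:38109103-38109352 (plus strand) for Tmem213, chr6:38124587-38124836 (minus strand) for Atp6v0a4, chr11:34208090-34208339 (minus strand) for Foxi1 and chr6:83742767-83743016 (plus strand) for Atp6v1b1. Capitals mark the core shared by forkhead factors, TAAACA, searched on both strands.
Tmem213: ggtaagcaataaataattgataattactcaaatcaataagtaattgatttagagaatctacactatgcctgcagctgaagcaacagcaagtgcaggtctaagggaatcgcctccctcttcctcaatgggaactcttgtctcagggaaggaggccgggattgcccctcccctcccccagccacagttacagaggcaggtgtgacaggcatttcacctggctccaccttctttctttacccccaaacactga
Atp6v0a4: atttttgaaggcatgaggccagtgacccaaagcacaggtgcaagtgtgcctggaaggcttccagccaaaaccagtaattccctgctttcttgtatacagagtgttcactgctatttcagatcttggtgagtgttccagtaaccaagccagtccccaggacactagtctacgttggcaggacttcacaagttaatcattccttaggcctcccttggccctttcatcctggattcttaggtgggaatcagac
Foxi1: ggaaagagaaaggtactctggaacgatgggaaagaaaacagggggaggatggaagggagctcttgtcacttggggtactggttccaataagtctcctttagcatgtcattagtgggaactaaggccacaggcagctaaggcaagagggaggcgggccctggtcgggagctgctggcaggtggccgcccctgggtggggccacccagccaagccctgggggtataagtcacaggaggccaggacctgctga
Atp6v1b1: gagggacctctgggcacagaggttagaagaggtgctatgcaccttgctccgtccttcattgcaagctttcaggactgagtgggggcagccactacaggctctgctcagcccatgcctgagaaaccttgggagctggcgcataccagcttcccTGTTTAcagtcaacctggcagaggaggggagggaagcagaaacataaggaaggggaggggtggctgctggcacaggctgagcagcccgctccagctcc

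The core occurred once among the 5 promoters, in Atp6v1b1, from 98 to 93 bases before the start and on the minus strand, so that the printed strand reads TGTTTA. There it belonged to the longer form GTAAACA, which contains the core. Of 32851 promoter windows of the same table, each 300 bases long with 50 after the start, 13.4% held TAAACA and 3.65% held GTAAACA. None of the 21 windows of other pump subunit genes held either, and none of the 12 windows of other intercalated cell genes did. Some genes had several windows and some none: these windows covered 16 of the 21 listed pump genes and 9 of the 16 listed intercalated cell genes. A match to these letters is a description of the sequence and not a binding site.

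Between the arrays, Tmem213 was 2.58-fold and Foxi1 1.88-fold higher with the Sirpa-/- label, and Atp6v0a4 was 1.43-fold higher. Atp6v1b1, Atp6v1g3 and Car2 lay within 1.20-fold of the WT array. Atp6v0d2 was 1.12-fold higher on its brighter probe, which stands for the gene in counts, and 1.86-fold higher on its other. The list therefore did not move as a block. With values at least 2-fold apart counted as different, 1 of 7 genes was higher, against 1.56% of all 18239 genes measured on both arrays, and 0 of 7 was lower, against 1.67%. The median difference of the 7 genes was 0.26 on the log2 scale, beside 0.00 over all genes. Every log2 difference has WT subtracted from the array labelled Sirpa-/-, after each array was divided by its 75th percentile signal. That step raised the Sirpa-/- values by a factor of 1.04 relative to the unscaled signals printed here.

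The regulator comes first. Foxi1 (probe A_55_P2166513) had signals of 61.5 ± 6.5 and 111 ± 11.2, where ± is the scanner software's own error estimate for the spot. Its log2 difference was 0.91 with an error of 0.21 propagated from those estimates, so the 2 signals lay further apart than their errors. Its family members Foxi2 and Foxi3 had differences of 0.04 and -0.00, the latter turning to 0.16 with another background correction (normexp). Foxi2 had signals of 82.7 and 81.3, and Foxi3 of 70.0 and 66.9.

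Of the V1 subunits, Atp6v1b1 encodes the B1 isoform, part of the catalytic head, whose loss in people causes distal renal tubular acidosis with deafness. Its signal (probe A_52_P169982) was 16.9 ± 2.4 and 14.2 ± 2.0, a log2 difference of -0.19 with an error of 0.29. Atp6v1g3 encodes the kidney isoform G3 of the stalk, and its signal (probe A_55_P2145759) was 85.4 ± 8.7 and 72.4 ± 7.4, a difference of -0.18 with an error of 0.21. Both lay within the error of the software, and their direction was not stable: with normexp the differences became 0.16 for Atp6v1b1 and 0.00 for Atp6v1g3.

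Of the V0 subunits, Atp6v0a4 encodes the a4 isoform of the large membrane subunit, mutated in another form of distal renal tubular acidosis. Its signals (probe A_55_P1953003) were 412 ± 41.3 and 566 ± 56.6. The difference of 0.52, with an error of 0.20, was larger than that error but short of 2-fold.
Atp6v0d2 encodes the d2 isoform, which osteoclasts and macrophages also make, and was the one gene with a second probe. The brighter probe, A_66_P124179, gave 18.4 ± 2.4 and 19.7 ± 2.4, a difference of 0.16 with an error of 0.26. On A_52_P71686 the signals were 12.4 ± 1.9 and 22.1 ± 2.6, a difference of 0.89 with an error of 0.28. The probes shared a direction but not a size, and at signals this dim no size can be given for Atp6v0d2.

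Tmem213 encodes a small membrane protein that is used as a marker of intercalated cells. Its signal (probe A_51_P401501) was 82.5 ± 8.5 and 204 ± 20.4, a log2 difference of 1.37 with an error of 0.21. It stayed at least 2-fold higher in all 9 other ways of processing that were tried, at 1.07 to 1.46. In the gene table, Tmem213 lies within the span of Atp6v0a4 on chromosome 6, on the opposite strand, so these genes, both higher with the Sirpa-/- label, overlap in position. D630045J12Rik, named after its values were seen, also overlaps the span of Atp6v0a4 and was lower, at -0.38 (55.6 and 40.9). Where the probes of Tmem213 and Atp6v0a4 lie relative to the span they share is not given in the files.

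Car2 completes the list. Its signal (probe A_51_P455647) was 265 ± 26.5 and 304 ± 30.4, a difference of 0.26 with an error of 0.20, and it was above 0 in all 9 other settings (0.24 to 0.36). Carbonic anhydrase II is also abundant in red blood cells, and the values of red cell genes are given with the other cell markers.

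**Figure D1:**
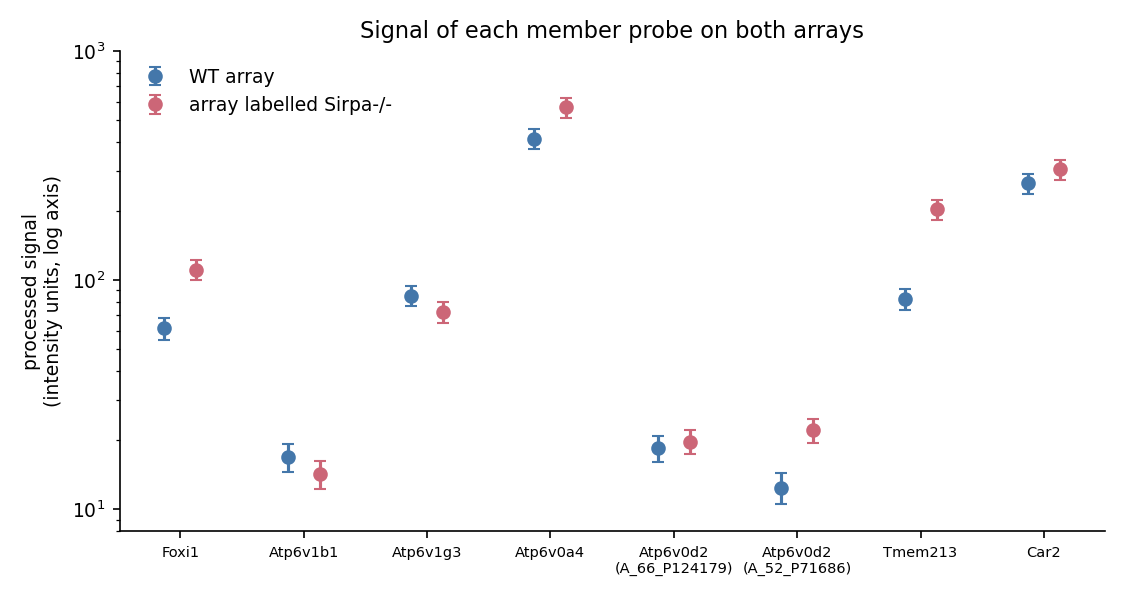
Processed signal of the 8 probes of the 7 genes on the WT array (blue) and the array labelled Sirpa-/- (red), on a log axis in intensity units; bars are the scanner software's error estimate for the spot, and each point is 1 spot on 1 array. Tmem213 (82.5 and 204) and Foxi1 (61.5 and 111) stand furthest apart among the single-probe genes, and the 2 probes of Atp6v0d2 differ in how far apart their arrays are.

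How far these values stand out depends on the signal, since dim genes scatter more. The measured genes were split into 5 equal classes by mean signal, class 1 being the dimmest. Atp6v1b1 and Atp6v0d2 fell in class 1, Foxi1, Atp6v1g3 and Tmem213 in class 2, and Atp6v0a4 and Car2 in class 3. In class 2, the central 90% of genes ran from -0.72 to 0.62 and 2.22% of genes were at least 2-fold higher and 2.33% lower with the Sirpa-/- label. Tmem213 and Foxi1 lay above that range, with 1.29% and 2.66% of the class at least as high as each. Atp6v0a4 lay just above the range of class 3, which ended at 0.50, and 4.74% of that class was at least as high. The other 4 genes lay inside the range of their class, Atp6v0d2 on its brighter probe alone: the range of class 1 ran from -0.82 to 0.82, and its other probe gave 0.89. At least 2-fold apart were 3.4% of class 1 (higher) and 3.34% (lower), and 1.37% and 1.59% of class 3, against 0 of the 4 listed genes in these classes.

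The technical scatter was also read from probes printed 10 times on each array. The SD of the log2 difference between single spots had a median of 0.34 over 47 such probes with signals of 10 to 30, of 0.09 over 54 probes at 60 to 200, and of 0.06 over 85 probes at 200 to 1000. Atp6v1b1 and the brighter probe of Atp6v0d2 thus differed by less than 1 such SD. The other listed genes and the dimmer probe of Atp6v0d2 (0.89) differed by more than the SD at their signals. These include Atp6v1g3 (-0.18), which lay within the software's error, and Car2 (0.26). This scatter covers spotting and scanning alone and holds no difference between animals.

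**Figure D2:**
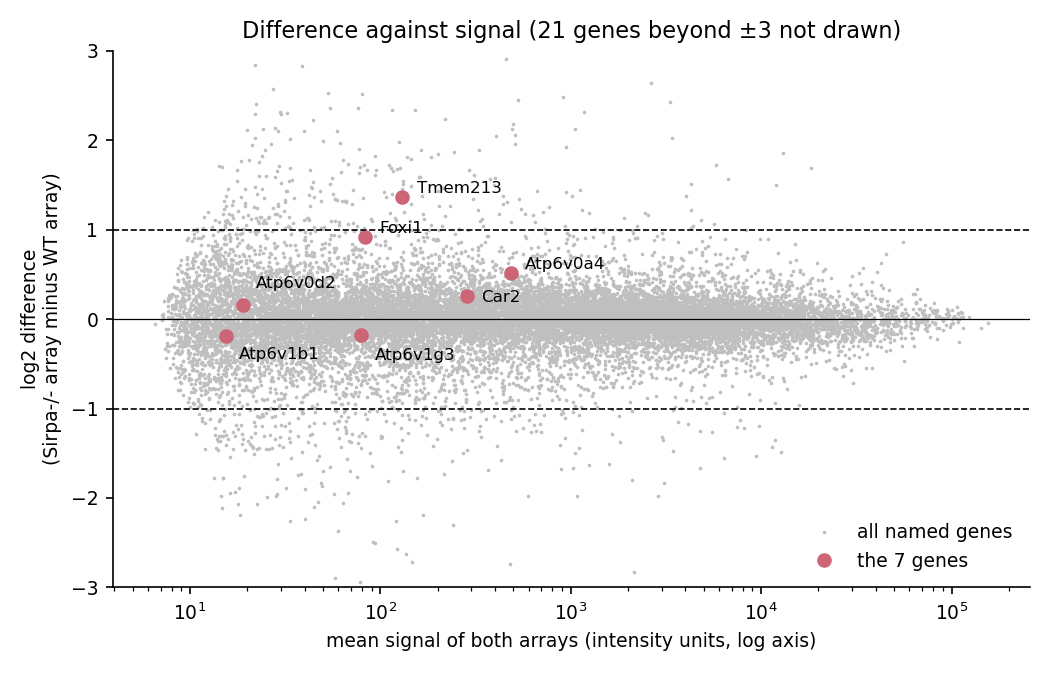
Log2 difference (Sirpa-/- label minus WT) of every measured gene against its mean signal on a log axis, with the 7 genes in red and dashed lines at 2-fold; 21 genes beyond 3 on the log2 scale are not drawn. Tmem213 alone of the 7 lies beyond a dashed line, and the scatter of all genes widens towards low signals.

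The subunits that intercalated cells share with other cells gave a comparison within the pump. Of the other 21 subunit and accessory genes, 21 were measured, 0 were at least 2-fold apart in either direction and 12 lay above 0, with a median difference of 0.02. For 17 of these the difference was smaller than the software's error. Atp6v1a, the catalytic A subunit, had signals of 9256 and 9910 and a difference of 0.16. The largest differences were -0.50 for Atp6v1g2, the G isoform best known from neurons, and 0.33 for Atp6v1b2, the widely expressed B isoform. The value of Atp6v1g2 came as close to 0 as -0.12 in an alternative setting.

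Set beside isoforms of the same subunit, the genes of the list went different ways. Atp6v1b1 (-0.19) lay below Atp6v1b2 (0.33), by 0.52. Atp6v1g3 (-0.18) lay below the ubiquitous Atp6v1g1, which had signals of 17790 and 17035 and a difference of -0.00, and above Atp6v1g2. Atp6v0d2 gave 0.16 and 0.89 on its 2 probes, beside 0.11 for the ubiquitous Atp6v0d1. Atp6v0a4 lay above its isoforms, at 0.52 against 0.13 for Atp6v0a1, -0.12 for Atp6v0a2 and -0.09 for Tcirg1, the a3 isoform of osteoclasts, which reached 0.00 with spike-in scaling. These are differences between single probes on 1 pair of arrays, and none was tested.

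**Figure D3:**
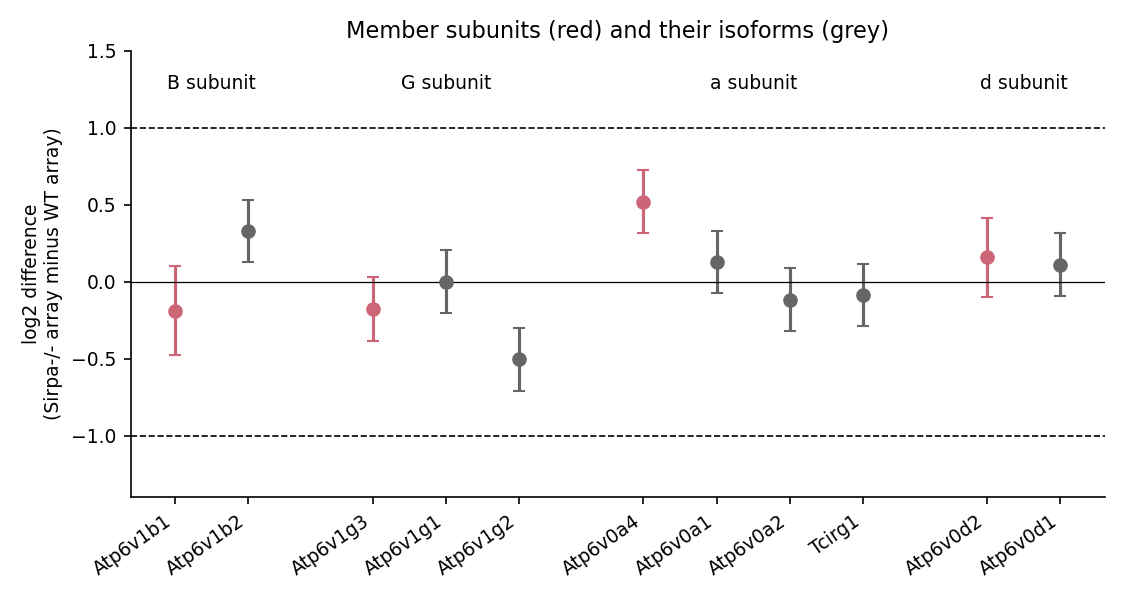
Log2 difference (Sirpa-/- label minus WT) of the 4 pump subunit genes of intercalated cells (red) and of their isoforms (grey), grouped by subunit; bars are the error propagated from the scanner software's estimates, and dashed lines mark 2-fold. Atp6v0a4 at 0.52 lies above its isoforms, while Atp6v1b1 at -0.19, a value that turned to 0.16 with normexp, lies below Atp6v1b2.

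Other genes of intercalated cells were then examined. Of 16, 15 were measured (Hmx2 was not well above background on either array), 1 exceeded 2-fold upwards with the Sirpa-/- label and 0 downwards, and 11 lay above 0, with a median of 0.35. Bsnd (barttin), which the loop and distal tubule also express, gave 0.75 (65.2 and 105). Rhcg, the ammonia transporter of the acid-secreting collecting duct, gave 0.96 (180 and 335), and the related Rhbg 0.35 (28.1 and 34.2).

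Markers of the intercalated cell subtypes did not share one value. Slc4a1, the chloride-bicarbonate exchanger of the acid-secreting type A cell and also the band 3 protein of red cells, gave 0.77 (120 and 195). Oxgr1, the oxoglutarate receptor of the base-secreting type B cell, gave 0.90 (40.7 and 72.7), and 0.49 at the lowest over the alternatives. The best known type B marker, Slc26a4 (pendrin), gave 0.08 (109 and 110). Slc4a9, another type B exchanger, gave -0.10 on its brighter probe (98.6 and 88.3) and 0.47 on its other (15.2 and 20.1), so its direction is not settled. Aqp6, an intracellular water channel of type A cells, gave 0.58 and, on a second probe, 0.06. Tmem213, Foxi1, Rhcg, Slc4a1 and Oxgr1 thus each had the higher value under the Sirpa-/- label, while Slc26a4 lay near 0 and Atp6v1b1, Atp6v1g3 and Slc4a9 had signs that turned with normexp. Others of the 15 were steadily lower, against 11 above 0. Insrr gave -0.27 (90.3 and 71.5) and Avpr1a -0.14 (150 and 131), both below 0 in every setting. Kit gave -0.08, and 0.01 at the highest over the alternatives. Insrr, Avpr1a, Kit, Bsnd, Aqp6 and Oxgr1 were singled out after their values were seen.

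Among carbonic anhydrases other than Car2, 12 of 15 were measured, 0 were at least 2-fold apart and 9 lay above 0, with a median of 0.16. The largest differences were 0.74 for Car3, known from muscle, and -0.68 for Car11, a relative without enzyme activity. Car12, a membrane-bound form also found in the collecting duct, gave -0.65 (766 and 468). Car14 gave 0.55 (411 and 577) and Car8 0.57, or 0.33 on its second probe. Car12, Car14 and Car8 were singled out after their values were seen. Car2, at 0.26, lay between Car3 and Car11.

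Markers of other cells that the preparation could hold differed at the same time. Because tissue RNA was measured, more cells of a type and more RNA per cell cannot be told apart. Markers of the loop and distal tubule, segments upstream of the collecting duct, exceeded 2-fold in 5 of 9 cases, all upwards with the Sirpa-/- label. Of the 9 markers, 8 lay above 0, with a median of 1.04. Their summed scaled signal, in units of each array's 75th percentile, was 2.33 (WT) and 4.43 (Sirpa-/-). Slc12a3, the thiazide-sensitive cotransporter, was 5.77-fold higher (22.6 and 125), Calb1 2.63-fold, Kcnj1 2.60-fold, Kcnj10 2.60-fold and Trpm6 2.05-fold. Sizes among these dim genes depended on the setting: over the alternatives the lowest log2 difference was 1.22 for Slc12a3 and 0.71 for Calb1, beside 2.53 and 1.39, and with normexp 4 of the 9 exceeded 2-fold. The 1 marker below 0, Slc12a1, singled out after its values were seen, gave -0.15 (222 and 191) and stayed below 0 in every setting. The other markers short of 2-fold were Umod at 0.97, Cldn16 at 0.23 and Pvalb at 0.19, or 1.44 on its second probe. The 7 genes themselves summed to 0.81 and 1.16 in units of each array's 75th percentile. The part of the distal tubule markers in the values of Tmem213 and Foxi1 was not tested.

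Principal cells are the neighbours of intercalated cells in the collecting duct. Of their 10 markers 9 were measured, 0 were at least 2-fold apart and 5 lay above 0, and their summed signal was 32.0 (WT) and 28.8 (Sirpa-/-). That sum is mostly Gata3, which mesangial cells also express. The median of 0.05 turned to -0.08 with a stricter filter on dim probes. Aqp2, the vasopressin-regulated water channel, gave 0.15 (364 and 387). The sodium channel subunits Scnn1b (12.02 and 21.7) and Scnn1g (28.0 and 34.9) gave 0.91 and 0.38, at dim signals, and Scnn1b gave 0.36 at the lowest over the alternatives. The 4 markers below 0, singled out after their values were seen, were Aqp4, Gata3, Hsd11b2 and Fxyd4. Aqp4 gave -0.30 (517 and 403), and -0.10 on its second probe. Gata3 gave -0.16, Hsd11b2 -0.10 and Fxyd4 -0.08. Hsd11b2 and Fxyd4 rose above 0 at the highest over the alternatives. Elf5 was well above background on the array labelled Sirpa-/- alone. Its signals of 7.97 ± 2.1 and 11.7 ± 2.0 gave a ratio of 1.54 after scaling, which is not a lower bound.

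Proximal tubule markers lay on the other side. All 12 were measured and 12 lay below 0, with 0 at least 2-fold apart, a median of -0.33 and summed signals of 15.6 and 11.7. Aqp1 (2896 and 1460) gave -0.93, and the lactate transporter Slc5a12 (1060 and 585) gave -0.80. With spike-in scaling, normexp or the mean of a gene's probes, 1 of the 12 lay above 0.

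Erythroid genes bear on Car2 and Slc4a1, which red cells also use. Of 10, 7 were measured, 4 exceeded 2-fold upwards with the Sirpa-/- label and 1 downwards, with a median of 1.5 and summed signals of 15.8 and 48.0. The higher genes were Alas2, of haem synthesis (3.06-fold), the alpha globin Hba-a1 (2.84-fold) and the beta globins Hbb-bs (2.83-fold) and Hbb-bt (3.23-fold), near-identical copies whose probes may read one another. Rhag and Epb42 were not well above background on either array. Whether red cells take part in the value of Car2 was not tested.

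Macrophage and osteoclast markers bear on Atp6v0d2. Of 13, 11 were measured, 0 were at least 2-fold apart and 3 lay above 0. Their median of -0.11 turned to 0.06 with normexp, and their summed signals were 11.8 and 12.4. That sum is mostly Mrc1, the macrophage mannose receptor gene, singled out after its values were seen, which gave 0.36 (7203 and 8827). Adgre1 (F4/80) gave -0.91 (663 and 339) and Acp5, the osteoclast phosphatase, -0.37 (788 and 584). Gpnmb was well above background on the WT array alone and at least 1.71-fold higher there. The podocyte list had 0 of 10 genes at least 2-fold apart and a median of 0.12. Nphs1 (nephrin) gave 0.63 and Nes -0.55. Podocytes are the cell type in which the design text places the deletion.

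**Figure D4:**
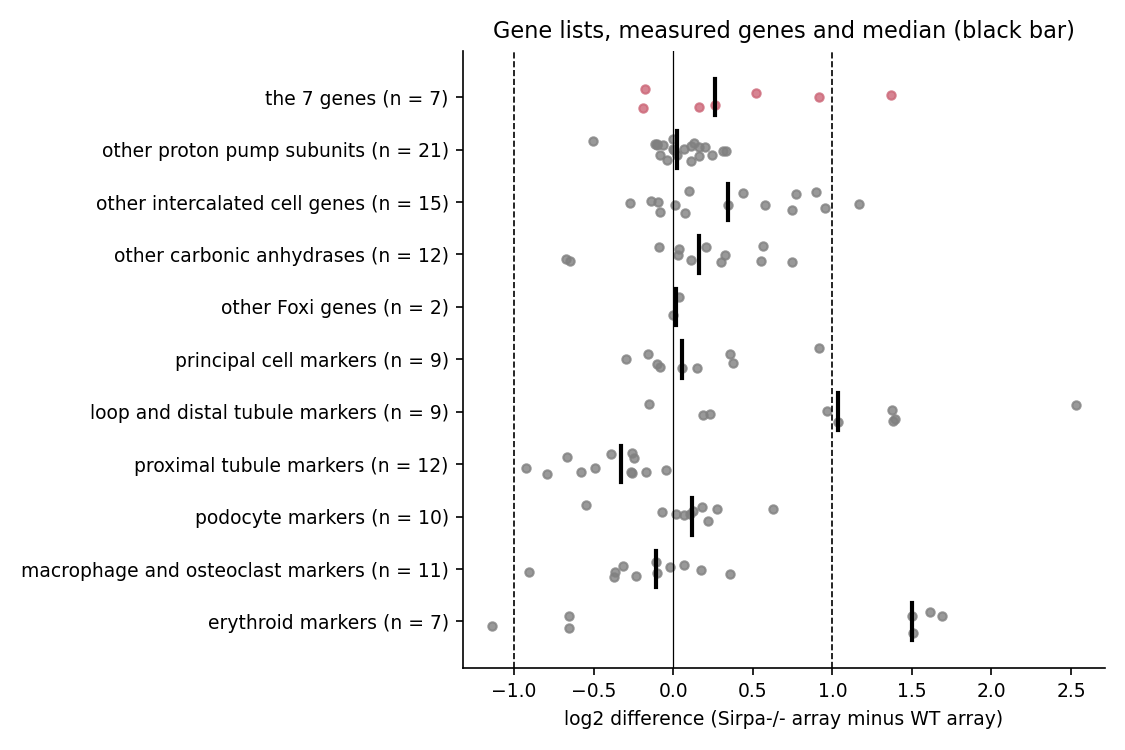
Log2 difference (Sirpa-/- label minus WT) of the measured genes of each list, 1 point per gene, with the list's median as a black bar and dashed lines at 2-fold. The 7 genes spread from -0.19 (0.16 with normexp) to 1.37, the other pump subunits cluster near 0 and the loop and distal tubule markers have a median of 1.04.

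The order of the 7 genes by difference was Tmem213, Foxi1, Atp6v0a4, Car2, Atp6v0d2, Atp6v1g3 and Atp6v1b1. Car2 and Atp6v0d2, and likewise Atp6v1g3 and Atp6v1b1, lay closer together than the software's error of either. The authors' deposited value table gave the same signs, with log2 differences of 1.36 for Tmem213, 0.91 for Foxi1, 0.50 for Atp6v0a4, 0.26 for Car2, -0.17 for Atp6v1g3 and -0.23 for Atp6v1b1. For Atp6v0d2 it gave 0.12 and 0.85 on the same 2 probes, so the disagreement between them was in both sets of values.

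**Figure D5:**
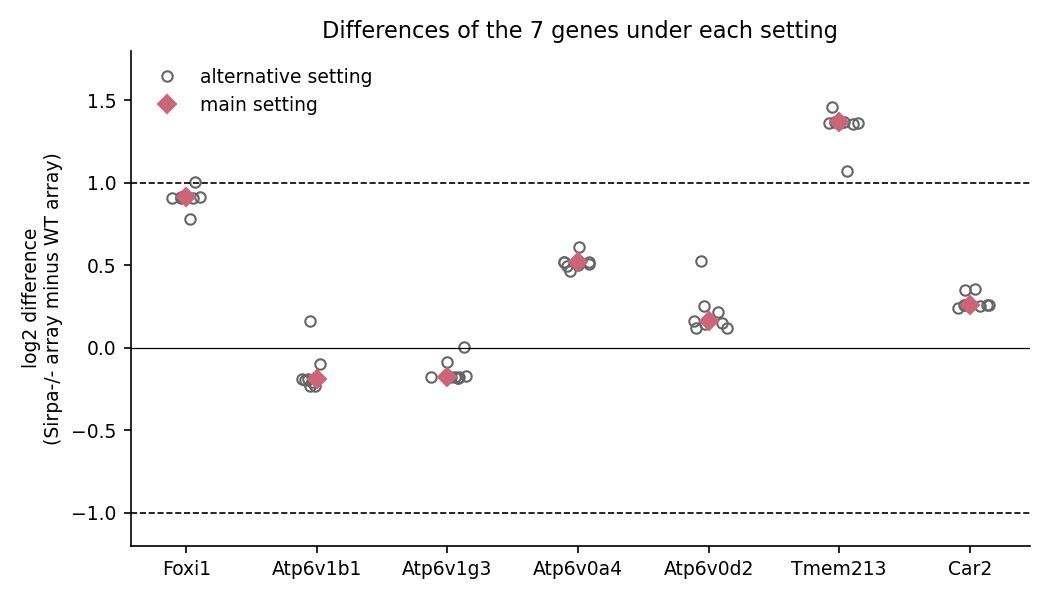
Log2 difference (Sirpa-/- label minus WT) of each of the 7 genes in the main setting (red diamonds) and in up to 9 alternative settings (open circles), with dashed lines at 2-fold. Tmem213 stays beyond 2-fold in each (1.07 to 1.46), Foxi1 runs from 0.78 to 1.00, and Atp6v1b1 and Atp6v1g3 reach 0 or above in 1 setting, normexp.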

How the data were processed

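Per the file headers, the authors scanned each one-colour array and extracted it with Agilent Feature Extraction 11.0.1.1, while the submitters' processing notes name version 9.1. The deposited intensity of a spot is its background-subtracted processed signal, with no scaling between arrays. The files also hold other values, quality flags that the scanner software set, per the file headers. A value table that the authors deposited is on a log2 scale, by steps the sources used here do not state. Its columns share their quartiles, and it served only as an alternative.

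Here log2 was taken of the intensity, unmarked spots of a probe were averaged, and each array's 75th percentile over gene probes (1157 for WT and 1109 for Sirpa-/-) was subtracted. A probe counted as measured when more than 50% of its spots carried that flag on each array. Probes were named by RefSeq accession in a GRCm38.p6 gene table (27234 of 39429, 69.1%), and the brightest probe stood for a gene. A gene above background on 1 array has a bound, taken against the floor of the array where it was dim. Where its own signal there was brighter than the floor, that signal was used, and the value is a ratio and not a bound.

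With 1 array per group no test was possible, and values at least 2-fold apart were counted. The number of arrays limits the precision. The procedure was tested on simulated data with the same noise at every signal, which does not cover the wider scatter of dim genes. The genes, lists and the rule for naming genes (the 7 genes, Sirpa, isoforms, fixed transporters, list genes at least 2-fold apart or, failing these, the 2 furthest from 0) were chosen with earlier results of these data known. Single values of a few genes that this rule names are not reported here. With 2 arrays no likeness of pattern across samples could be measured. Python 3.11.15 and limma 3.58.1 were used.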

Additional observations from a re-analysis of the deposited data

How the results depend on the processing

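The 7 genes were recomputed in 9 other ways, of which normexp was set up after seeing the data, because the files have no mean signal and its median signal was used. A value was taken as moved when it shifted by more than 0.068 on the log2 scale, the median SD of single spots of repeated probes. Of 61 values of single genes 48 did not move, and none of the genes past 2-fold changed direction. Spike-in scaling, on 6 probes, raised every value by 0.09: Tmem213 gave 1.46, Foxi1 1.00, Atp6v0a4 0.61, Car2 0.35, Atp6v0d2 0.25, Atp6v1g3 -0.086 and Atp6v1b1 -0.10. It put 2 of the 7 genes past 2-fold, Tmem213 and Foxi1, and gave medians of 0.35 for the 7 genes, 0.11 for other pump subunits and 0.44 for other intercalated cell genes. Normexp gave 1.07 for Tmem213, 0.78 for Foxi1, 0.36 for Car2, 0.16 for Atp6v1b1 and 0.0033 for Atp6v1g3, with a median of 0.36, and the cause was not tested. The mean of its probes put Atp6v0d2 at 0.53 and the median of the 7 genes at 0.52. A stricter filter (a signal of at least 50 on both arrays) left 5 of the 7, without Atp6v1b1 and Atp6v0d2, with a median of 0.52, and put other intercalated cell genes at 0.26. With no filter these lay at 0.22. With a 1.5-fold threshold 2 of the 7 genes were higher, and with 3-fold 0. Over all genes, 285 were at least 2-fold higher and 304 lower in the main setting, 670 and 613 with no filter, 121 and 136 with the stricter filter and 113 and 79 with normexp. At 1.5-fold they were 791 and 962, and at 3-fold 98 and 73. The higher genes made up 48.4% of those past 2-fold, 59.4% with spike-in scaling and 58.9% with normexp. Naming genes by a name column was not run, since the scanner files have none. No paired analysis was possible because each group has 1 array.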

Other observations

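The neighbours of the 7 genes in the gene table, singled out after their values were seen, differed less than Tmem213 and Foxi1. Around Tmem213 and Atp6v0a4 on chromosome 6, Svopl gave -0.11 (signals of 78.0 for WT and 69.4 for Sirpa-/-) and D630045J12Rik -0.38 (55.6 and 40.9). Trim24 (0.04) and Zc3hav1l (0.05) lay near 0. Next to Foxi1 on chromosome 11, Lcp2, an adaptor of T cells, gave -0.36 (13.6 and 10.2) and Dock2, a regulator of leukocyte migration, 0.38 (16.8 and 20.9), both at dim signals. Of the 7 genes, 3 lie on chromosome 6, Atp6v1b1 at another place than the other 2.

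Car2 lies on chromosome 3 between its relatives Car3, Car1 and Car13 on one side and genes of the SIRP family on the other. Sirpb1a gave 0.37 (521 and 644) and Sirpb1b 0.20 (889 and 978), beside 0.26 for Car2. The genes directly beside Car2 had larger values, Car3 with 0.74 (35.2 and 56.5) and Gm9733 with 0.54 (53.2 and 73.9). Sirpa itself is not among these neighbours.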
